A study of Mus musculus with 8 samples.

Results

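The oligoadenylate synthetase (OAS) genes measured here are Oas1a, Oas1g, Oas2, Oas3, Oasl1 and Oasl2, which are 6 of the 27998 genes in the deposited count tables. They were taken by gene symbol, and all 6 passed the filter on low counts in the whole compartment. The data are a single-cell RNA-seq time course of mouse bone marrow cells that lack lineage markers and carry cKit (LK cells), a gate that holds most hematopoietic stem and progenitor cells (HSPCs), with extra CD150+ CD48- CD34- stem cells sorted in. All mice were Wildtype and 12 to 14 weeks old. The 3 treated groups received recombinant mouse IFNα under the skin, 50000 IU for each 20 g of body weight, and were collected after 3, 24 or 72 h, while control mice received 100 µl PBS. Each of the 4 groups held 4 mice, whose cells carried 4 different hashtag antibodies and were pooled into 1 library, so a time point and its library cannot be told apart.

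Type I interferon is sensed by a receptor on nearly all nucleated cells and switches on a large set of antiviral genes, among which the OAS genes are classical members. The synthetases are enzymes that lie inactive until they bind double-stranded RNA, upon which they join ATP into short oligoadenylates with an unusual linkage. These oligoadenylates act as second messengers that set off the breakdown of viral and cellular RNA.

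Oas1a and Oas1g each encode a small synthetase with a single catalytic unit, Oas2 and Oas3 encode larger proteins made of repeated units, and Oasl1 and Oasl2 encode proteins with a ubiquitin-like tail. Of the last pair, Oasl2 is known as an active synthetase and Oasl1 as an inactive one that restrains the translation of Irf7. All 6 genes lie on chromosome 5 of GRCm38, in separate groups. Oasl2 spans chr5:114896936-114912234 and Oasl1 chr5:114923240-114937915, both on the plus strand, and an antisense gene, Gm13822, overlaps the first bases of Oasl1. Oas2 spans chr5:120730333-120749853, Oas3 chr5:120753098-120777661, Oas1g chr5:120876142-120887613 and Oas1a chr5:120896256-120907521, all on the minus strand.

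Promoters are shown because all members rose together after the treatment. The letters searched were GAAANNGAAA, or TTTCNNTTTC for a match on the opposite strand, both read along the gene's strand. They are the core of the interferon-stimulated response element and were searched in the 250 bases before the start of each gene in RefSeq (GRCm38.p6). They stood in 3 of the 5 members with a promoter in the table, Oas1a, Oas1g and Oas3, against 978 of 32851 promoters, or 2.98%, in all. Oasl1 and Oasl2 did not hold these letters in that window. Capitals mark the match, and in Oas1a, Oas1g and Oas1c 2 copies overlap. The Oas1c stretch, from a paralogue in the same gene cluster, is shown for its opposite orientation.
Oas1a, chr5:120907526-120907575, minus strand: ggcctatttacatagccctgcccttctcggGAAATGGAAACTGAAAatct
Oas1g, chr5:120887614-120887661, minus strand: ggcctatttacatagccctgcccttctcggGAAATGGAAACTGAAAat
Oas3, chr5:120777695-120777764, minus strand: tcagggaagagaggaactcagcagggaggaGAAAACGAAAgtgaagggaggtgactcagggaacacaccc
Oas1c, chr5:120812583-120812658, minus strand: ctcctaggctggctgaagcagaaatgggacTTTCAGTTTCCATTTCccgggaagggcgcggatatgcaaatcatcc

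The match lay 20 to 5 bases before the start of Oas1a and 18 to 3 bases before that of Oas1g, inside a run of 56 identical bases that both genes share upstream. No other pair among the 5 members with a promoter shared a run of more than 9 bases there, and Oas2 had no promoter to compare. In Oas3 the match lay farther out, 75 to 66 bases before the start. Oas1a and Oas1g are also alike in their transcripts, which were 90.6% identical over their length and shared a run of 146 bases within the last 500, where a 3′ library takes its reads. The other pairs shared at most 11 bases there, so counts of Oas1a and Oas1g are less certain than those of the rest. How reads from the shared run were counted was not tested.

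Of 13310 cell barcodes, 10046 were kept, between 1661 at 3 h and 3462 at 24 h, with a median of 12017 to 18964.5 UMIs (counted molecules) per cell and library. One mouse stood apart: control mouse 4 had 58 kept cells and 1102706 UMIs, while the other 15 mice had 330 to 1240 cells. Pairs of libraries shared 9 to 69 barcodes, but at most 1 kept cell. HSC-like cells made up a median of 18.5% of a mouse's cells in control and 32.4% at 3 h, and myeloid progenitor-like cells 28.9% and 16.3%, so in sums over all cells a shift in cell types and a shift in RNA per cell cannot be told apart. Summed HSC markers moved with the treatment, at 244 to 325 CPM (UMI counts scaled to a common library total) in control and 471 to 622 at 3 h with all 10 markers detected. Their list holds Ly6a, the gene of Sca-1, which the study of these data reports to rise after IFNα. That sum therefore does not measure the share of stem cells alone. Other lists were lower at 3 h without overlap: the 15 myeloid progenitor markers (13300 to 18500 CPM in control and 7900 to 11700 at 3 h), the 6 monocyte markers (52.2 to 93.0 and 32.9 to 41.5), the 6 B lineage markers (40.9 to 52.1 and 33.6 to 36.8), the 4 mature neutrophil markers (6.01 to 6.96 and 3.92 to 4.81) and the 4 dendritic markers (0.777 to 1.42 and 0.126 to 0.654). The 6 macrophage markers, at 3.48 to 13.4 and 2.40 to 4.68, and the 4 T and NK markers, at 327 to 605 and 314 to 416, overlapped. At 3 h 2 of 4 T and NK markers had a UMI, with Cd3e and Cd3g at 0, as had 4 of 6 B lineage markers, with Ms4a1 and Pax5 at 0, and 2 of 4 dendritic markers, with Siglech and Cd209d at 0. The part of these shifts in the results for all cells was not tested, and values within classes are given further on.

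At 3 h after IFNα, all 6 OAS genes rose in the whole compartment, by 24.8 to 50.5-fold. In every one of them the lowest of the 4 treated mice lay above the highest control mouse. The share of all genes without such overlap is not given, so this describes the values only. The 6 members fell back together at 24 h but remained called higher than control. At 72 h they parted, with Oas1g higher, Oas2 lower and the rest short of the fold threshold. A gene was called where the adjusted p was under 0.05 and the log2 fold change was over 1 in size. All 6 members were called higher at 3 h, against 5.22% of the 12042 genes tested, and all 6 at 24 h, against 1.46%. All 3 contrasts share the 4 control mice. At 72 h, 1 was called higher and 1 lower, where 1.70% of all genes were higher and 1.16% lower. The median log2 fold change of the members was 4.88, 1.95 and 0.00 at 3, 24 and 72 h, and that of all genes was -0.03, 0.00 and 0.02.

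**Figure D1:**
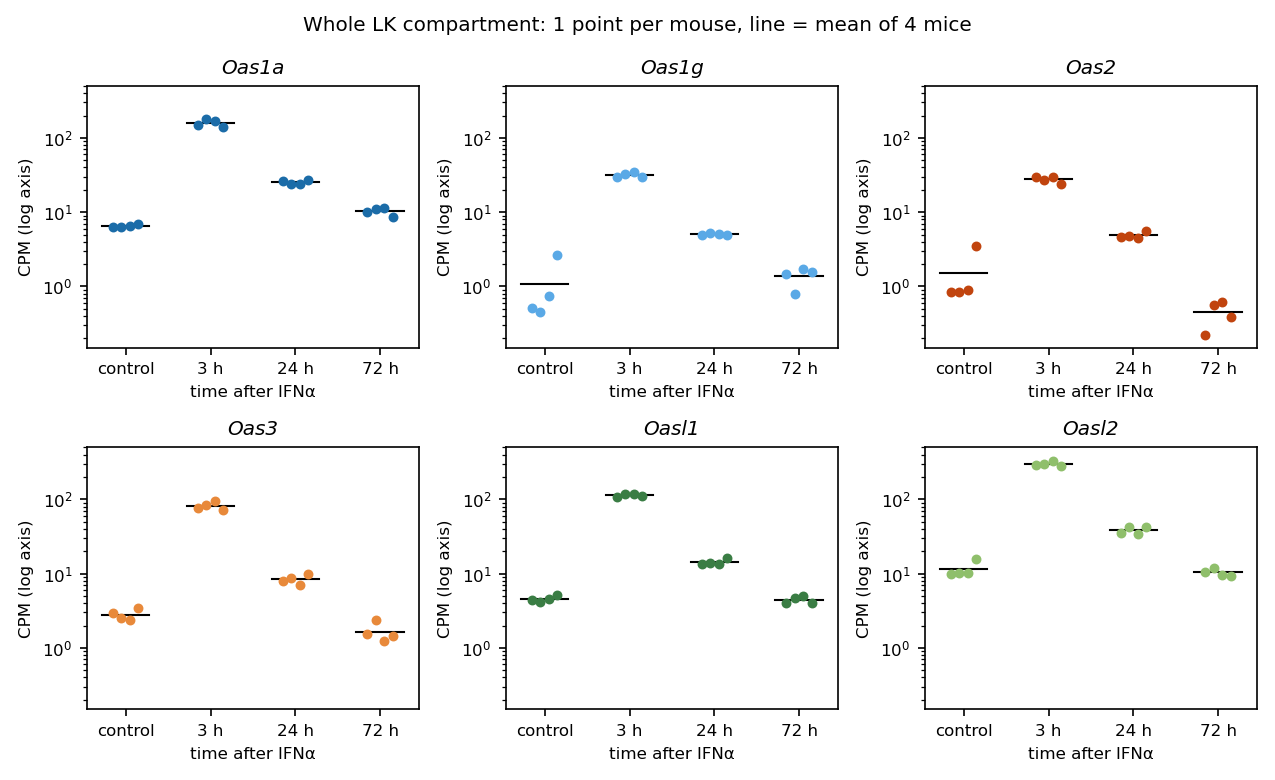
CPM of each OAS gene (vertical log axis) in each of the 16 mice (points) at control, 3, 24 and 72 h, which are spaced evenly and not to scale. In all panels the 3 h points lie above every other point and the 24 h points between these and control, while the 72 h points lie near those of control.

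Among the small synthetases, Oas1a stood at 6.32, 6.30, 6.54 and 6.96 CPM in control mice 1 to 4 and at 147, 178, 171 and 140 CPM in the 3 h mice. At 24 h its level was 26.6, 24.0, 23.7 and 27.3 CPM, and at 72 h 9.96, 11.1, 11.4 and 8.55 CPM. No group overlapped another, and the 72 h mice still lay above all control mice. The log2 fold change of Oas1a was 4.63 ± 0.10 (SE, n = 4 mice a group, edgeR adjusted p = 8.33e-21) at 3 h and 1.99 ± 0.10 (adjusted p = 1.15e-12) at 24 h. At 72 h it was 0.67 ± 0.12 (adjusted p = 0.000183), past the p threshold and under that of the fold.

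Oas1g, the near copy of Oas1a, stood at 0.518, 0.454, 0.745 and 2.61 CPM in control, where the highest value came from 3 UMIs in control mouse 4. At 3 h it reached 30.2, 32.5, 34.3 and 29.5 CPM, and at 24 h 4.99, 5.27, 5.11 and 5.0 CPM. The 72 h mice had 1.48, 0.786, 1.70 and 1.56 CPM, above the control mice other than mouse 4. Its log2 fold change was the largest among the members at 3 h, 5.66 ± 0.17 (edgeR adjusted p = 1.06e-17), and at 24 h, 3.03 ± 0.20 (adjusted p = 1.52e-10). It was the only member called higher at 72 h, with 1.17 ± 0.28 (adjusted p = 0.00244), and 1.28 (adjusted p = 0.000593) without control mouse 4.

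Of the larger synthetases, Oas2 had 0.829, 0.852, 0.904 and 3.48 CPM in control, the last from 4 UMIs in mouse 4. It rose to 29.5, 27.3, 29.6 and 24.2 CPM at 3 h and stood at 4.63, 4.83, 4.44 and 5.51 CPM at 24 h. At 72 h it was at 0.221, 0.561, 0.626 and 0.389 CPM, and every 72 h mouse lay below every control mouse. The log2 fold changes of Oas2 were 4.90 ± 0.17 (edgeR adjusted p = 1.22e-16) at 3 h and 2.40 ± 0.19 (adjusted p = 3.64e-09) at 24 h. At 72 h the value of -1.07 ± 0.35 (adjusted p = 0.0206) was called lower, but it rests on 19 UMIs in the 4 mice. Without control mouse 4 it was -0.98 (adjusted p = 0.0251) and without 72 h mouse 1 -0.79 (adjusted p = 0.109), neither of which was called.

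Oas3, the longest member, had 2.95, 2.5, 2.34 and 3.48 CPM in control. It rose to 75.9, 85.2, 94.3 and 71.7 CPM at 3 h, a log2 fold change of 4.97 ± 0.13 (edgeR adjusted p = 6.39e-19). At 24 h it stood at 8.01, 8.77, 6.99 and 9.91 CPM, with 1.70 ± 0.15 (adjusted p = 2.02e-08), still above all control mice. The 72 h mice had 1.55, 2.36, 1.25 and 1.46 CPM, of which 3 lay below all control mice and 1 within their range. That difference, -0.69 ± 0.23 (adjusted p = 0.0228), passed the p threshold but not that of the fold.

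In sums over all cells both OAS-like genes overlapped control again at 72 h. Oasl1 went from 4.40, 4.2, 4.58 and 5.22 CPM in control to 108, 119, 119 and 111 CPM at 3 h, with a log2 fold change of 4.69 ± 0.08 (edgeR adjusted p = 4.35e-22). At 24 h it had 13.6, 14.0, 13.6 and 16.2 CPM, or 1.70 ± 0.09 (adjusted p = 2.3e-12), and at 72 h 4.06, 4.71, 5.0 and 3.98 CPM. The last values overlapped those of control, with 72 h mice 1 and 4 below every control mouse. The fold change of 0.00 ± 0.12 (adjusted p = 1) did not pass.

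Oasl2 had 9.84, 10.3, 10.3 and 15.7 CPM in control and 287, 303, 325 and 284 CPM at 3 h, a log2 fold change of 4.86 ± 0.09 (edgeR adjusted p = 5.76e-22). It stood at 35.3, 42.6, 34.4 and 42.0 CPM at 24 h, 1.91 ± 0.09 (adjusted p = 2.69e-13) above control. At 72 h its values of 10.5, 11.9, 9.74 and 9.43 CPM overlapped control, with 0.00 ± 0.11 (adjusted p = 0.984).

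From 3 to 24 h all 6 members were called lower, against 2.93% of all genes, with a median log2 change of -2.80, and from 24 to 72 h all 6 again, against 0.648%, with a median of -1.88. The first step was steepest for Oas3, at -3.27, and least steep for Oas2, at -2.5. In the second step Oas2 fell most, by 3.47, followed by Oas3, by 2.39, and Oas1a fell least, by 1.31 on the log2 scale. As a share of the rise at 3 h, measured in CPM above the control mean, the 24 h mice retained 12.4% ± 1.19 of Oas1a, 13.1% ± 0.421 of Oas1g and 12.8% ± 1.8 of Oas2 (mean ± SD, n = 4). For Oasl1, Oasl2 and Oas3 these shares were 8.88% ± 1.14, 9.39% ± 1.5 and 7.09% ± 1.56.

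Whether the members fell at the same pace in sums over all cells was tested on the ratio of each pair within a mouse, for all 15 pairs. The test was a two-sided exact permutation test of 4 against 4 mice, whose smallest possible p is 0.0286. That p was reached by 10 pairs (Benjamini-Hochberg adjusted p = 0.0429, exact test). The share of all gene pairs that reach it is not given, so this count has no background. The 15 ratios come from 6 genes and are not independent of each other. Oas3 lost ground between 3 and 24 h against all the other members: the log2 ratio moved by 0.63 for Oas1a to Oas3, 0.66 for Oas1g to Oas3, 0.79 for Oas2 to Oas3, -0.27 for Oas3 to Oasl1 and -0.30 for Oas3 to Oasl2. Oas2 and Oas1g gained on both OAS-like genes, with 0.51 for Oas2 to Oasl1, 0.48 for Oas2 to Oasl2, 0.39 for Oas1g to Oasl1 and 0.36 for Oas1g to Oasl2. Oas1a gained 0.35 on Oasl1, and 0.32 on Oasl2 with an exact p of 0.0571.

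For the other 4 pairs no shift was detected. Oas1a to Oas1g changed by -0.04 (exact p = 0.686), Oasl1 to Oasl2 by -0.03 (exact p = 0.829), Oas1a to Oas2 by -0.16 (exact p = 0.143) and Oas1g to Oas2 by -0.12 (exact p = 0.257). In sums over all cells, Oas1a, Oas1g and Oas2 lay at one end of the order by this measure. Oasl1 and Oasl2 lay between, and Oas3 at the other end. The median HSC-like share was 32.4% at 3 h and 24.8% at 24 h, and its part in this order was not tested. In HSC-like cells the log2 fold changes at 3 and 24 h were 3.64 and 0.68 for Oas3 and 4.34 and 1.05 for Oasl1. Oas1g had 5.28 and 2.20 there, and Oas1a 4.63 and 1.66. Oasl1, Oas1g and, by little, Oas1a thus fell more than Oas3 in HSC-like cells. In MK progenitor-like cells Oasl1, Oasl2 and, by little, Oas1a fell more than Oas3. The order over all cells was not kept in these classes, and falls within classes were not tested. In LMPP-like, myeloid and erythroid progenitor-like cells Oas3 fell most of the members.

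**Figure D2:**
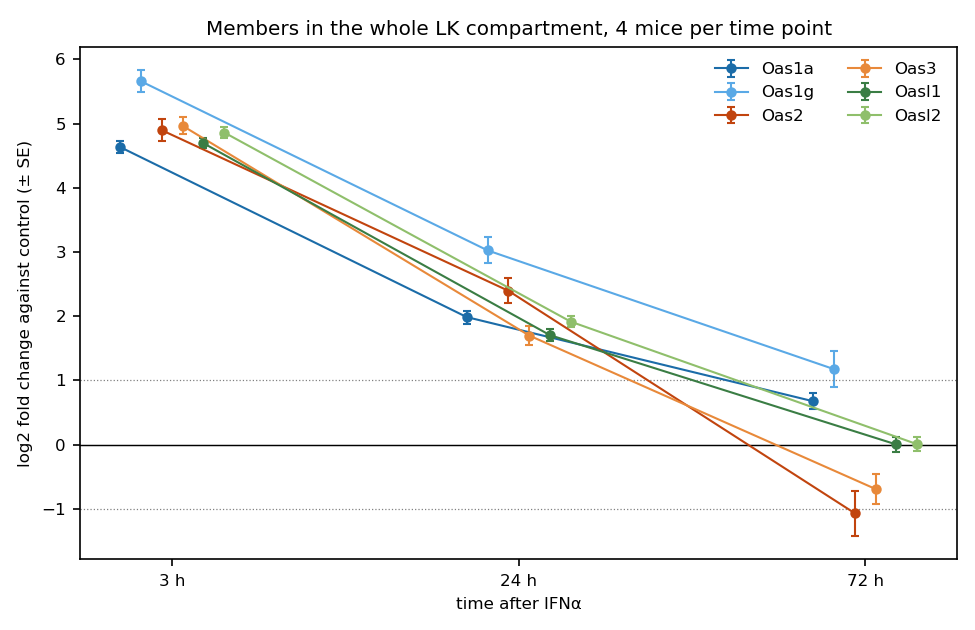
Log2 fold change against control (vertical axis) of each OAS gene at 3, 24 and 72 h (horizontal axis, evenly spaced and not to scale). Bars are 1 SE, computed from the fold change and the F statistic of the edgeR fit over 16 mice. The lines run close together at 3 h, between 4.63 and 5.66, and spread apart at 72 h, between -1.07 for Oas2 and 1.17 for Oas1g.

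The same pair ratios between 72 h and control were compared after the values had been seen. They differed at the smallest exact p of 0.0286 in 9 of 15 pairs (adjusted p = 0.0476, exact test) and in 11 without control mouse 4, where 3 against 4 mice allow no p below 0.0571. These counts have no background among all gene pairs either. Oas1a gained on Oas2 by 1.89, on Oas3 by 1.36, on Oasl1 by 0.68 and on Oasl2 by 0.76 on the log2 scale, and Oas1g gained 1.82 on Oas2. Oas2 and Oas3 lost against the OAS-like genes, with -1.21 for Oas2 to Oasl1, -1.13 for Oas2 to Oasl2, -0.68 for Oas3 to Oasl1 and -0.61 for Oas3 to Oasl2. Ordered by their 72 h fold change in sums over all cells, the small synthetases came first, the OAS-like genes next and the larger synthetases last. The median HSC-like share was 18.5% in control and 30.6% at 72 h, and its part in this order was not tested. Oas1g was called at 72 h in no class. Its log2 fold change was -1.77 in LMPP-like cells, against 0.84 in HSC-like, 1.49 in myeloid, 2.52 in erythroid and 1.11 in MK progenitor-like cells.

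Among other genes tied to the pathway, Abce1, a factor that recycles ribosomes, changed by 0.11, -0.06 and 0.05 and Pde12, a phosphodiesterase that degrades oligoadenylates, by 0.02, 0.00 and 0.04 on the log2 scale at 3, 24 and 72 h. Neither passed at any time. Akap7, an anchoring protein with a phosphodiesterase domain of the same activity, was called higher at 3 h, with 1.02 ± 0.15 (edgeR adjusted p = 8.31e-06), and stood at 0.59 at 24 h and 0.86 at 72 h. Both later values passed the p threshold (adjusted p = 0.00144 and 3.57e-05) but not that of the fold.

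The rest of the OAS family was silent or low in these cells. Oas1d, Oas1e and Oas1f had no UMI in any mouse, Oas1h had 1 at 3 h and 1 at 24 h, and Oas1b was not analysed here. Oas1c rose from 2.46 ± 0.332 CPM in control to 9.22 ± 1.82 CPM at 3 h (mean ± SD, n = 4), a log2 fold change of 1.94 ± 0.19 (edgeR adjusted p = 1.95e-08). It was also called at 24 h, with 1.18 ± 0.17 (adjusted p = 2.42e-05), and stood at 0.67 (adjusted p = 0.00981) at 72 h.

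To see how many cells carried OAS transcripts, each cell was thinned to 5000 UMIs, which left out 35 to 68 shallower cells a library. At least 1 UMI of any member was found in a median of 13.2% of the cells of a control mouse, and after IFNα in 93.1% (3 h), 38.2% (24 h) and 14.9% (72 h). Over the mice these shares ranged from 12.5% to 15.5%, 92.0% to 94.4%, 35.8% to 40.2% and 13.6% to 16.1%. Only control and 72 h overlapped. Without thinning the medians were 33.2%, 99.4%, 77.0% and 35.9%.

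From control over the 3 treated times in turn, Oasl2 was found in 6.70%, 72.3%, 19.7% and 6.53% of cells and Oas1a in 3.41%, 54.7%, 12.1% and 5.34%. The shares at 3 h were 42.1% for Oasl1, 34.4% for Oas3, 15.4% for Oas1g and 14.2% for Oas2. The mean number of different members seen per cell was 0.154 in the median control mouse and 2.33 in the median 3 h mouse. For free RNA in the droplets the references were genes of other lineages in HSC-like cells. For S100a8, a neutrophil gene, 2.49% of cells in control and 1.57% to 1.64% of treated cells carried a UMI at the same depth (4.94% and 2.62% to 3.25% unthinned). Over all cells, control shares of Oas1g, Oas2, Oas3 and Oasl1, at 0.445%, 0.745%, 2.07% and 2.24%, lay under that reference. Within HSC-like cells Oas1g and Oas2, at 1.05% and 1.91%, lay under it too. Oas3 and Oasl1 lay above it there, at 6.51% and 3.82%. In control S100a8 was found in 22.6% of myeloid progenitor-like cells, so its share in HSC-like cells sets no floor for genes at other levels. Hba-a1, a globin gene, was found in 0.909% of HSC-like cells in control and 1.41% to 2.66% of treated ones, and Hbb-bt, another globin gene, in 13.8% and 9.90% to 12.9%. Hbb-bt was found in 0.284% of myeloid progenitor-like cells in control, so its share was not alike in all classes. The share of S100a8 was not alike either, at 1.28% of LMPP-like, 0.549% of erythroid and 3.11% of MK progenitor-like cells in control. Neither share is taken as a level of free RNA. Over all cells, the control and 72 h shares of each of the 6 members lay under that of Hbb-bt in HSC-like cells, which are a different set of cells. Within HSC-like cells Oasl2 lay above Hbb-bt in control, at 16.4%, and under it at 72 h, at 11.6%. The control and 72 h shares of the members are not read as expression by single cells.

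**Figure D3:**
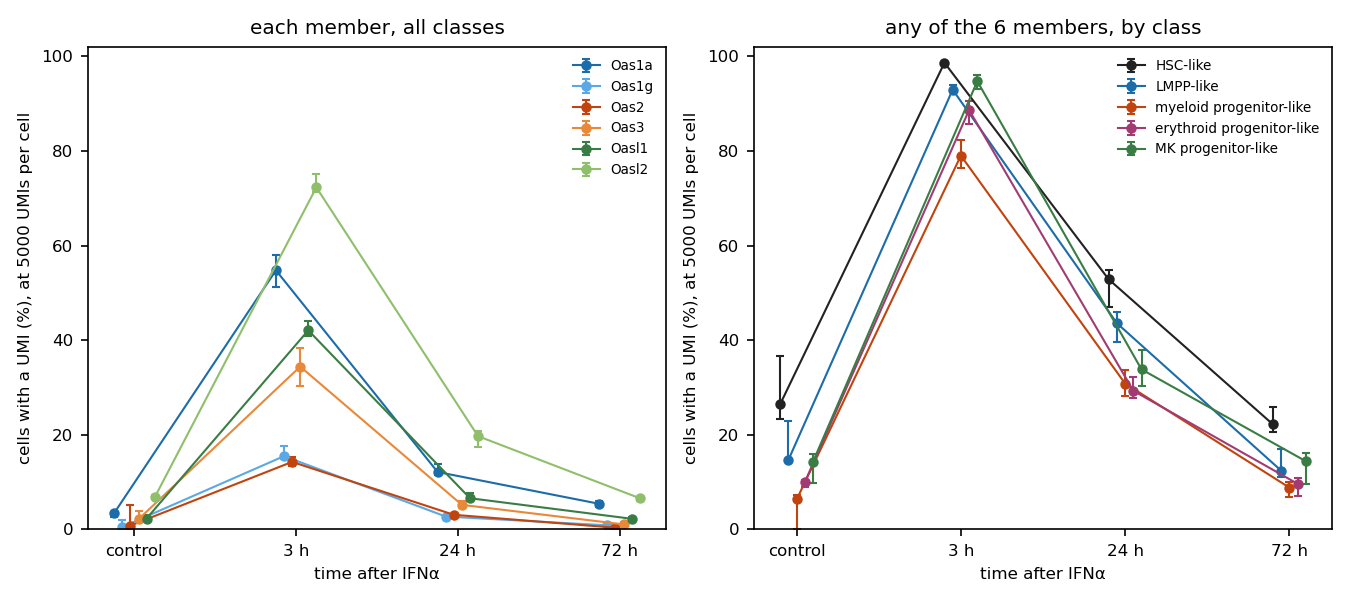
Percent of cells with at least 1 UMI (vertical axis) after thinning to 5000 UMIs, at control, 3, 24 and 72 h (evenly spaced, not to scale). The left panel shows each OAS gene over all cells and the right panel any member in each of 5 cell classes. Points are medians over mice, with bars from the lowest to the highest mouse. On the right, control medians run from 6.26% in myeloid progenitor-like to 26.5% in HSC-like cells. The same 2 classes mark the ends at 3 h, with 79.0% and 98.7%, and at 72 h, with 8.78% and 22.2%.

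Cells were assigned to classes by clusters of the control cells, made without the OAS genes, and named from markers. HSC-like cells, led by Hlf, Ly6a and Gcnt2 but with the lymphoid gene Dntt among the 10 leading genes of 1 cluster, were compared with LMPP-like cells (Dntt, Flt3), myeloid progenitor-like cells (Mpo, Elane, Irf8), erythroid progenitor-like cells (Car1, Rhd) and MK progenitor-like cells (Pf4, Itga2b). Control mouse 4 entered only the HSC-like class, with 13 cells, and the myeloid class, so the other classes had 3 control mice. The myeloid class was made up differently over time: its S100a8-led cluster held 190 cells in control and 19, 62 and 37 at 3, 24 and 72 h. In control its largest cluster, with 283 cells, was led by Ly6c2 and Mpo, and in treated mice it was a cluster led by Ms4a6c and F13a1.

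HSC-like cells had the highest level of Oasl2 at all 4 times, without overlap with the next class. In control it stood at 37.7 ± 8.07 CPM in HSC-like cells, 16.3 ± 4.03 in MK progenitor-like, 16.2 ± 6.53 in LMPP-like, 2.67 ± 1.83 in myeloid and 2.25 ± 0.532 in erythroid progenitor-like cells (mean ± SD over 3 or 4 mice). The middle pair overlapped, as did the lowest pair. At 3 h the same classes had 558 ± 12.2, 330 ± 12.8, 287 ± 15.5, 143 ± 16.5 and 145 ± 18.4 CPM. A level in CPM is relative to all UMIs of a class, and cells of the classes differed in depth. Median UMIs per cell were 7313 to 12113.5 in the HSC-like control clusters and 30445.5 to 35468.5 in the myeloid ones. Ranks in CPM are therefore not ranks of molecules per cell.

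Oas3 showed the same order at its top, again without overlap between HSC-like cells and the next class at any time. Its control level was 12.3 ± 4.26 CPM in HSC-like cells against 2.86 ± 1.13 in LMPP-like and 0.388 ± 0.302 in myeloid progenitor-like cells, and its 3 h level was 150 ± 8.21, 67.0 ± 9.11 and 28.4 ± 3.82 CPM. Oas1a, Oas1g and Oas2 were highest in HSC-like cells in 4 of 4 mice at 3 h, at 246 ± 27.1, 62.2 ± 3.74 and 50.4 ± 1.54 CPM, and did not overlap the MK progenitor-like cells that came next, at 178 ± 15.9, 30.4 ± 7.36 and 29.4 ± 10.3. In control, neighbours in the order of these genes overlapped throughout. Oas1a then had 7.53 ± 5.22 CPM in HSC-like and 7.64 ± 1.83 in LMPP-like cells.

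Oasl1 was the exception among the members. In control it was highest in erythroid progenitor-like cells, at 11.5 ± 1.06 CPM, without overlap with the 7.39 ± 1.85 CPM of HSC-like cells, and erythroid cells were also first at 24 h, at 24.8 ± 5.34, and at 72 h, at 10.1 ± 3.34. At 3 h HSC-like cells had 153 ± 17.4 and erythroid cells 142 ± 16.4 CPM, which overlapped. For Oasl2, its neighbour on the chromosome, erythroid cells came last in control, overlapping the myeloid class. The difference between these 2 orders was not tested.

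**Figure D4:**
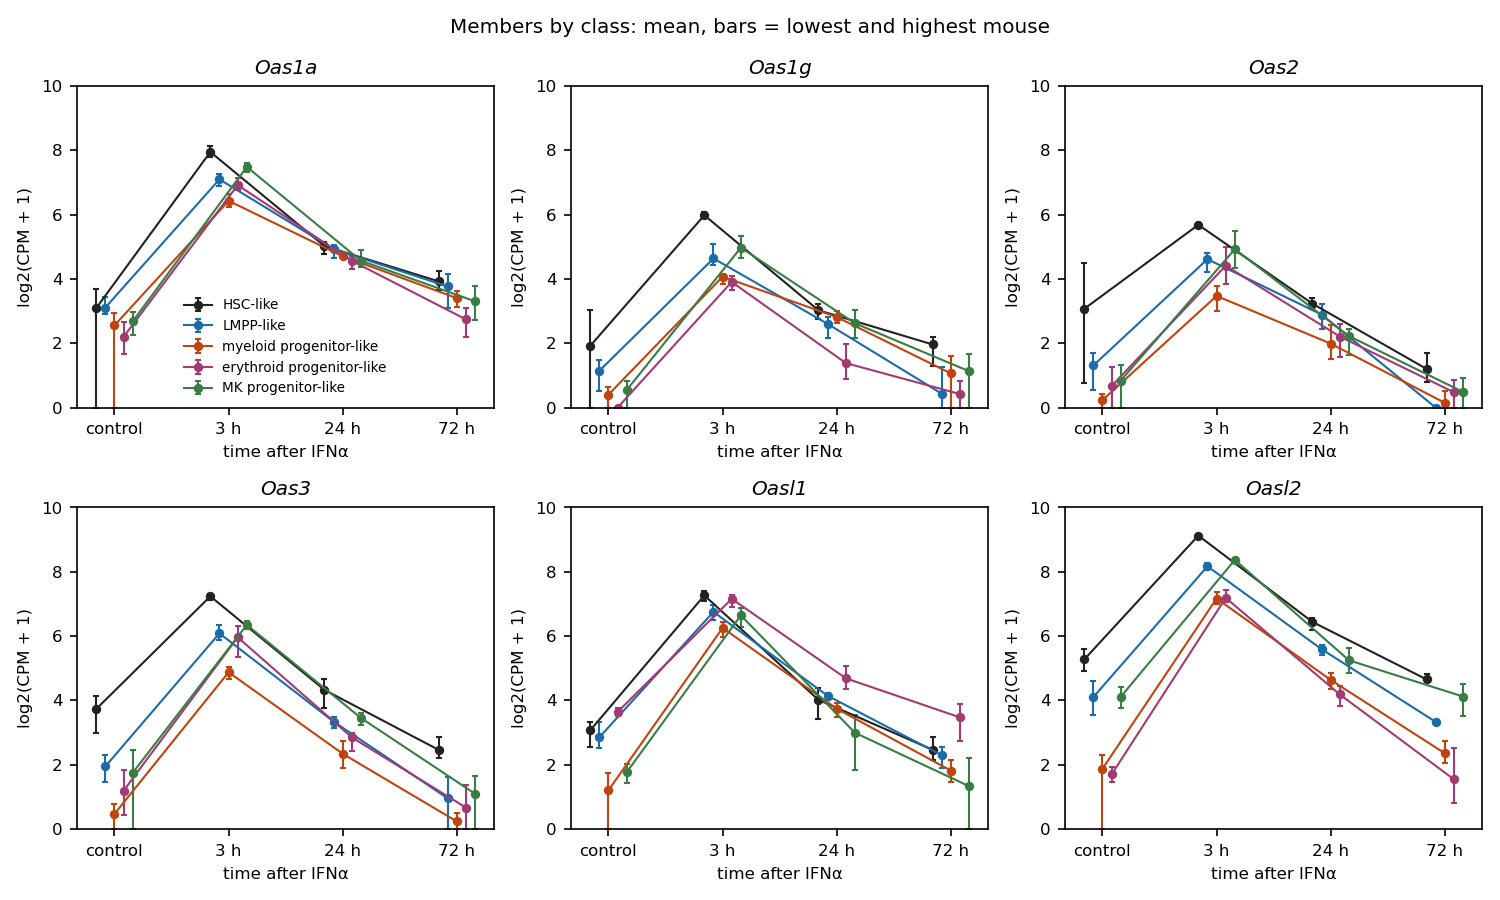
Level of each OAS gene as log2(CPM + 1) (vertical axis) in the 5 cell classes at control, 3, 24 and 72 h (evenly spaced, not to scale), as the mean over mice with bars from the lowest to the highest mouse. HSC-like cells lie on top for Oas3 and Oasl2 at all times, and erythroid progenitor-like cells lie on top for Oasl1 in control.

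At 3 h the rise reached every class. All 6 members were called higher in HSC-like cells, against 4.19% of genes tested there, in LMPP-like cells, against 3.58%, in myeloid progenitor-like cells, against 3.40%, in erythroid progenitor-like cells, against 4.0%, and in MK progenitor-like cells, against 3.56%. The median log2 fold change of the members was 4.13 in HSC-like, 4.14 in LMPP-like, 5.27 in myeloid, 5.35 in erythroid and 5.11 in MK progenitor-like cells. Oas1g had no UMI in the erythroid cells of the 3 control mice, which allows up to 0.433 CPM, and 14.0 CPM at 3 h. Taking that 3 h mean as exact, it was at least 32.3-fold higher. At 5000 UMIs, 98.7% of HSC-like and 79.0% of myeloid progenitor-like cells carried a member at 3 h, against 26.5% and 6.26% in control (medians over mice). Without thinning these shares were 100% and 99.2% at 3 h, against 42.8% and 33.0% in control.

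At 24 h all 6 members remained called in LMPP-like cells (background 0.996%), myeloid progenitor-like cells (1.14%) and erythroid progenitor-like cells (1.95%). In HSC-like cells 5 of 6 were called, against 0.706% of genes, and Oas3, at 0.68 ± 0.22 (edgeR adjusted p = 0.0669), was not. That count fell to 2 without control mouse 2, where Oas2 at 0.97, Oasl1 at 0.87 and Oasl2 at 0.99 were not called. In MK progenitor-like cells 4 were called, against 0.497%, and Oas2 at 2.24 ± 0.71 (adjusted p = 0.0726) and Oasl1 at 1.56 ± 0.49 (adjusted p = 0.0682) were not.

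At 72 h 1 member was called in HSC-like cells and 1 in LMPP-like cells. In HSC-like cells Oas3 was called lower, at 16.7, 6.96, 11.0 and 14.6 CPM in control and 4.33, 6.21, 3.58 and 3.96 CPM at 72 h, and no other member was called, where 0.726% of genes were called in either direction. The groups did not overlap, and the log2 fold change was -1.43 ± 0.31 (edgeR adjusted p = 0.00236), or -1.09 (adjusted p = 0.0759) without control mouse 1. Oasl2 lay lower there too, by -0.76 ± 0.14 (adjusted p = 0.000323), under the fold threshold, with 29.1 to 47.4 CPM in control and 22.8 to 27.3 CPM at 72 h, although its sums over all cells overlapped control. At an unadjusted p under 0.05 edgeR gave 4 members there, Oas2, Oas3, Oasl1 and Oasl2, all with lower values at 72 h. The share of all genes under that p is not given, so this count and those at that p further on have no background.

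In LMPP-like cells Oas2 was the member called (0.900% of genes). It had no UMI at 72 h among 6524812, which allows 0.460 CPM over the group, against 1.48 ± 0.898 CPM in control (edgeR adjusted p = 0.0205). Taking that control mean as exact, it was at least 3.22-fold lower. The mean rests on 10 UMIs, and control mouse 3 had 0.476 CPM, close to the limit. The call was lost with both other ways of assigning classes, with adjusted p = 0.0867 and 0.0943, and in 4 of the fits that left out a mouse, those without control mouse 1 or 2 or 72 h mouse 3 or 4, with 0.0506 to 0.0949. Oasl2 passed the p threshold alone, with -0.83 ± 0.24 (adjusted p = 0.0352), at 10.8, 23.5 and 14.3 CPM in control and 8.68 to 9.37 CPM at 72 h, but not without control mouse 2 (-0.46, adjusted p = 0.443), without any 1 of the 72 h mice (adjusted p = 0.0632 to 0.0875) or with classes assigned without interferon response genes (0.0956). Without control mouse 1 it was called, at -1.06 (adjusted p = 0.00416). At an unadjusted p under 0.05 edgeR gave 4 members in LMPP-like cells, Oas2, Oas3 and Oasl2 lower and Oas1a higher. No member was called at 72 h in myeloid progenitor-like cells (1.12%), erythroid progenitor-like cells (0.867%) or MK progenitor-like cells (0.700%). The members under that unadjusted p were 2 in myeloid cells, Oas1g and Oas1a (0.62, adjusted p = 0.0252, under the fold threshold), 1 in MK progenitor-like cells, Oas1a, and none in erythroid cells.

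Since HSC-like cells started higher, the size of the 3 h response itself was compared between classes of the same mice, with the mouse as a block. Against myeloid progenitor-like cells 2 of 6 members were called (0.852% of genes). The S100a8-led cluster of that class held 190 cells in control and 19 at 3 h. The part of this shift in the differences was not tested. The response of Oas3 was smaller in HSC-like cells by -1.98 ± 0.42 (edgeR adjusted p = 0.00221), and that of Oasl2 by -1.53 ± 0.21 (adjusted p = 5.71e-07). Oas1a went the other way, with a response larger by 0.92 ± 0.23 (adjusted p = 0.0146), under the fold threshold. In the exact permutation test of the difference within each mouse these 3 genes gave the smallest p of 4 against 4 mice, 0.0286, with -1.57 for Oas3, -2.05 for Oasl2 and 0.75 for Oas1a.

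Against erythroid progenitor-like cells the same pair was called (1.00% of genes), Oas3 with -1.87 ± 0.50 (edgeR adjusted p = 0.0211) and Oasl2 with -2.13 ± 0.34 (adjusted p = 3.26e-05). The exact permutation test of 3 against 4 mice gave 0.0571, the smallest p it allows, for 4 members, with -1.01 for Oas3, -1.62 for Oasl2, 1.34 for Oas1g and 0.74 for Oasl1. In edgeR the difference of Oasl1 was 0.81 ± 0.32 (adjusted p = 0.157), and that of Oas1g, which had no UMI in erythroid control cells, had the opposite sign, at -2.34 ± 1.19 (adjusted p = 0.317). Against LMPP-like cells (0.132% of genes) and MK progenitor-like cells (0.0304%) no member was called, and the differences of Oasl2 were -0.39 ± 0.21 and -0.63 ± 0.23, with adjusted p of 0.643 and 0.625. At an unadjusted p under 0.05 edgeR gave 1 member against LMPP-like cells, Oas3, and 2 against MK progenitor-like cells, Oas3 and Oasl2. These counts too stand without the share of all genes under that p.

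The levels behind these differences show where they lie. Oasl2 went from 47.4, 33.4, 40.8 and 29.1 CPM to 560, 566, 565 and 540 CPM in HSC-like cells, and from 3.77, 3.92, 2.99 and 0.00 CPM to 133, 163, 150 and 126 CPM in myeloid progenitor-like cells. HSC-like cells had the higher level at both times and the smaller fold. The control values of Oas3 in myeloid cells, 0.443, 0.735, 0.374 and 0.00 CPM, come from 13 UMIs, and control mouse 4 had none. Without that mouse the differences were -2.0 for Oas3 (edgeR adjusted p = 0.00277), -1.55 for Oasl2 (adjusted p = 5.71e-07) and 0.87 for Oas1a (adjusted p = 0.0255).

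**Figure D5:**
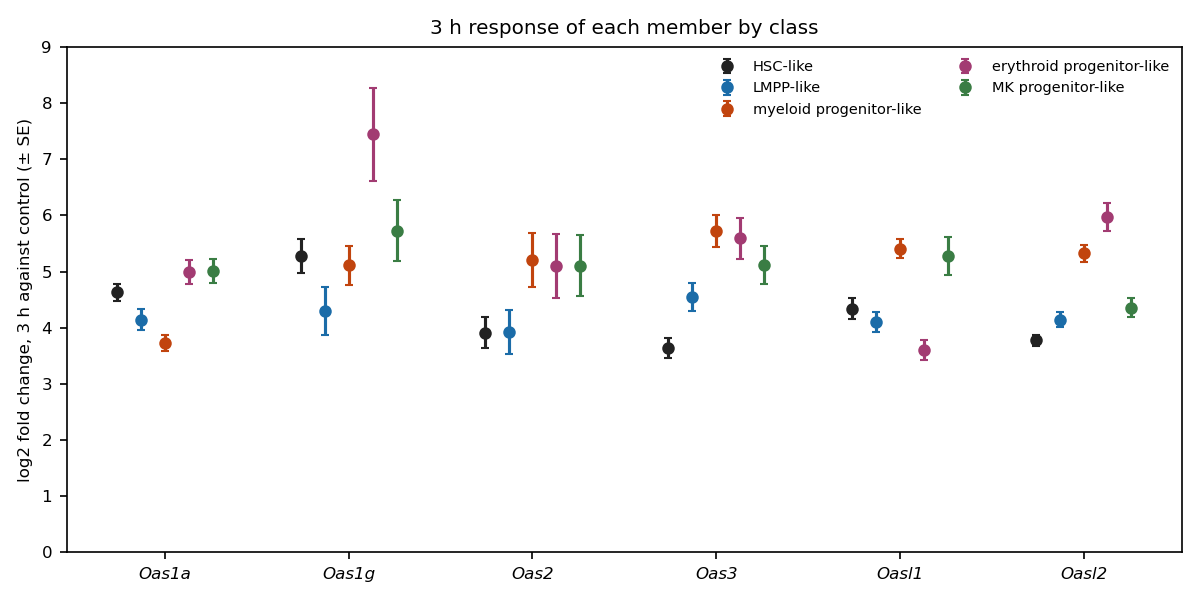
Log2 fold change at 3 h against control (vertical axis) of each OAS gene (horizontal axis) in the 5 cell classes. Bars are 1 SE, computed from the fold change and the F statistic of edgeR. HSC-like cells have the smallest value for Oas3 and Oasl2 and erythroid cells for Oasl1, and the erythroid value of Oas1g is fitted against 0 UMIs in control.

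Other genes that bind or sense double-stranded RNA rose with the OAS genes. All 7 on the list were called higher at 3 h, from 1.96 for Adar, the RNA-editing enzyme, through 2.82 for Eif2ak2, which encodes the kinase PKR, and 3.48 for the sensor Ifih1, to 5.30 for Zbp1, a sensor of left-handed nucleic acids. At 24 h 4 of 7 were called, Zbp1 at 1.75, Dhx58 at 1.49, Ddx58 at 1.06 and Ifih1 at 1.03, and at 72 h none, with 2 past the p threshold alone. The members' own values at 24 h ran from 1.70 to 3.03. Of 8 genes of the interferon receptor and its kinases and transcription factors, 4 were called higher at 3 h, Irf7 at 5.53, Stat2 at 2.88, Irf9 at 1.51 and Irf1 at 1.18, and at 24 h 1, Irf7 at 3.07 (all log2 fold changes from edgeR). At 72 h none of the 8 was called, and 3 passed the p threshold alone (Ifnar2, Jak1 and Tyk2). Both receptor genes stayed uncalled, with -0.17 for Ifnar1 and -0.16 for Ifnar2 at 3 h.

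The genes whose level followed the mean of the 6 members most closely over the 16 mice were Xaf1, Ifi44, Dhx58, Ube2l6 and Usp18, with Pearson r of 0.996, 0.996, 0.996, 0.995 and 0.994. The mice of a time point share their library, so these values describe 4 libraries more than 16 independent points. Xaf1 and Dhx58 were among the 3 closest genes of Oas3, Oasl1 and Oasl2 alike. Irf7 was first for Oas2, at 0.978, and Gm4951 for Oas1g, at 0.984. Close behind Irf7 for Oas2 came Rpl27, a ribosomal protein gene, at 0.976.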

How the data were processed

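UMI counts per gene and barcode were deposited by the authors, unnormalised, together with a table of each barcode's hashtag call and its hashtag totals. The submitters' processing notes name Cell Ranger 3.1.0, Seurat and mm10. Kept cells had a single hashtag, at least 700 genes and at most 5% mitochondrial counts. Hashtag multiplets were removed, and doublets within a mouse remain. Control cells were clustered (leidenalg 0.10.2, 14 clusters) without OAS genes, and labels were transferred with a mutual nearest neighbor correction written here, since Scanorama was not installed. Counts were summed per mouse, and per class with at least 10 cells, and tested with edgeR 4.0.16 (R 4.3.3), using filterByExpr, TMM, the quasi-likelihood test and Benjamini-Hochberg adjustment over all tested genes. The SE of an edgeR log2 fold change is its size divided by the square root of the F statistic of that test. It is not an output of edgeR and is rough where a group had no UMI. CPM were scaled by TMM, and log2 CPM of the pair ratios had a prior count of 2. Exact permutation tests were two-sided. Fits were tested on simulated data. Intervals and limits for 0 counts (3 UMIs) cover counting error only. Members, lists, markers and tests were chosen with earlier results of these data known, and named genes were the members and the genes of these lists, plus the 5 genes closest to their mean and 3 closest to each. Some genes of the lists are not reported here. A mouse is a hashtag within a library. Strain and sex were not given in the labels. Alternatives were DESeq2 1.42.0, the likelihood ratio test, library size scaling, no filter, a 10% mitochondrial limit, other label transfers, thinning to 3000 UMIs and leaving out each mouse.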

Additional observations from a re-analysis of the deposited data

Results flagged for a closer look

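In 12 of the 125 groups of 4 mice looked at, 1 mouse lay far from the other 3 by Dixon's gap measure. Chance alone gives this in about 1 of 20 groups of independent normal values. The groups here share cells and some hold counts at or near 0, so that rate is no background for this count. Control mouse 4, with 58 cells, was the highest for Oas1g at 2.61 CPM, Oas2 at 3.48 CPM and Oasl2 at 15.7 CPM in the whole compartment and for Oas2 at 21.8 CPM in HSC-like cells. It was also the lowest for Oas1a in myeloid progenitor-like cells, at 0.0 CPM from 16 cells. In the whole compartment the other was Oasl1 at 24 h, where 1 mouse had 16.2 CPM against 13.6 to 14.0. Among LMPP-like cells Oas1g was highest in 1 mouse at 3 h, with 32.7 CPM, and present in 1 mouse only at 72 h, with 1.40 CPM. In myeloid progenitor-like cells Oas1g was lowest in 1 mouse at 3 h, at 13.5 CPM, and Oas2 was present in 1 mouse only at 72 h, at 0.426 CPM. In erythroid progenitor-like cells 1 mouse had the lowest Oas3 at 24 h, with 4.40 CPM, and 1 the highest Oasl2 at 72 h, with 4.78 CPM.

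The 3 h response differed between classes by a test of the difference itself in 5 cases (edgeR, log2 scale, HSC-like minus the other class). Against myeloid progenitor-like cells the difference was -1.53 for Oasl2, -1.98 for Oas3 and 0.92 for Oas1a, and against erythroid progenitor-like cells it was -2.13 for Oasl2 and -1.87 for Oas3.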

How the results depend on the processing

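The counts of members called higher at 3 h and 24 h and lower in both later steps stayed at 6 of 6 in the whole compartment under all 22 alternatives, DESeq2 and the likelihood ratio test included. At 72 h the 1 member called lower, Oas2, ranged from 0 to 1 when a mouse was left out (0 without control mouse 4 or 72 h mouse 1). Values of Oasl1 and Oasl2 at 72 h lie at control and changed sign: Oasl1 was -0.0111 with library size alone, -0.0051 without a filter, -0.0048 by the likelihood ratio test, -0.0004 with the 10% limit and -0.0699 to 0.0498 with a mouse left out, and Oasl2 was -0.0071 with library size alone, -0.0011 without a filter, -0.0045 with the 10% limit and -0.057 to 0.0432 with a mouse left out. The cause was not tested. With a mouse left out, members called ranged from 2 to 6 in HSC-like cells at 24 h (2 without control mouse 2), from 0 to 1 in HSC-like cells at 72 h (0 without control mouse 1), from 0 to 1 in LMPP-like cells at 72 h (0 without 72 h mouse 3 or 4 or control mouse 2) and from 0 to 1 in myeloid progenitor-like cells at 72 h (1 without 72 h mouse 2 or 4). The LMPP-like count was 0 with both other label transfers. The exact within-mouse difference turned the sign of 4 uncalled values: Oas1g was 1.34 and Oas2 0.42 against erythroid, and Oas1g 0.90 and Oas2 0.22 against MK progenitor-like cells. With a mouse left out, the ratio of Oas1a to Oas1g moved by -0.0819 to 0.0053 and that of Oasl1 to Oasl2 by -0.0575 to 0.034 from 3 to 24 h. Fold changes of single members kept direction and side of the threshold in 1900 recomputed values, lost the call in 21, gained it in 6 and changed sign in the 22 near 0 counted above. No analysis paired across time points was possible because a hashtag number only names a mouse within its time point. Depth limits Oas2 and Oas1g in control and at 72 h, with 19 to 62 UMIs over the 4 mice.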
